A study of Rattus norvegicus with 15 samples.

Results

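Fluid on the alveolar surface is set by sodium uptake, chloride movement and water channels, and 9 genes of these systems were followed here across 15 rat lung RNA-seq libraries. They were chosen by name for their role: the 3 subunits of the epithelial sodium channel ENaC (Scnn1a, Scnn1b and Scnn1g), the beta subunit of the sodium pump (Atp1b1), the chloride channels Cftr and Ano1, the chloride loader Slc12a2, and the water channels Aqp1 and Aqp4. All 9 are among the 22250 genes of the deposited table, and all 9 were among the 13172 genes that passed a filter on low values (FPKM, the fragment count scaled by transcript length and by library size, at 1 or above in 5 or more libraries). Cftr passed with no library to spare: 4 control libraries and 1 COPD library reached that level.

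The libraries were made from lung tissue of rats labelled wild type, in 3 groups of 5. Control rats were untreated, as far as the labels go. The group named COPD, for a model of chronic obstructive pulmonary disease, received lipopolysaccharide (LPS, a bacterial endotoxin) and smoke by the trachea. The group named WDD received that same exposure and was also given Wendan Decoction, a herbal formula, by gavage. Every WDD rat was thus also exposed, and no group received the decoction alone. Strain, age, sex, dose and time are not given in the labels. The labels number the libraries of a group without stating whether different animals gave them, and p-values here therefore reflect variation among libraries that may in part be technical.

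As background, ENaC in the apical membrane lets sodium into alveolar and airway epithelial cells, and the sodium pump in the basolateral membrane drives it out into the interstitium, so that water follows and the air space is cleared. Chloride enters airway epithelial cells through Slc12a2, a sodium-potassium-chloride cotransporter, and leaves through apical channels such as Cftr, opened by cyclic AMP, and Ano1, opened by calcium. Aqp1 is the water channel of lung capillary endothelium, Aqp5 that of the apical face of alveolar type 1 cells, and Aqp4 lies in the basolateral membrane of airway epithelium.

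The groups also differed in measures of the libraries as a whole. Mitochondrially encoded genes held 5.19 to 9.62% of all FPKM in the control libraries, 33.7 to 65.0% in the COPD libraries and 19.1 to 26.5% in the WDD libraries, with no overlap between any pair of groups (exact permutation test, two-sided, p = 0.00794 for each pair, the smallest that 5 against 5 allow). The median log2 level of 17 long housekeeping transcripts minus that of 17 short ones was -1.62 to -0.39 in control, -4.11 to -2.62 in COPD and -3.30 to -2.41 in WDD libraries. It differed from control in both exposed groups (exact permutation p = 0.00794 each) and did not pass between WDD and COPD (exact permutation p = 0.183). Relative depth, read from the spacing of low values, was 0.885 to 1.11 times that of control library 2, and read totals are not in the table. Summed neutrophil markers (7 genes) were 148 to 234 FPKM in control, 14024 to 49701 in COPD and 99.2 to 669 in WDD libraries. Mitochondrial share differs along with the groups in every comparison below, WDD with control included. Neutrophil markers do so in the comparisons with COPD, and transcript length in those with control. The part of these measures in the results was not tested. In whole tissue, fewer cells of a type and less RNA per cell cannot be told apart.

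All 9 genes were lower in COPD than in control lungs, by limma on log2(FPKM + 1) with Benjamini-Hochberg adjustment over all tested genes and a threshold of 0.05. The background was high: 66.4% of tested genes were called lower in that comparison and 8.23% higher. Under median-of-ratios scaling 6 of the 9 were called lower, and 6 after quantile normalisation, beside 32.3% and 29.6% of tested genes. Cftr is counted in the 9 though it passed the filter through 4 control libraries and 1 COPD library. For 7 of the 9 genes every COPD library lay below every control library, which held for 52.3% of tested genes, while 3.99% had every COPD library above. The median log2 fold change of the 9 genes was -2.35, against -0.81 over all tested genes. In WDD compared with COPD lungs 6 of the 9 genes were called higher and 0 lower, beside 57.1% and 6.63% of tested genes, and 5 had every WDD library above every COPD library, beside 40.6% (4.43% the other way). The median was 1.38 for the 9 genes and 0.54 for all. In WDD compared with control lungs 5 of 9 were called lower and 0 higher, beside 31.0% and 6.35% of tested genes, and 5 had every WDD library below every control library, beside 31.4% (6.76% the other way). That call count was 2 under median-of-ratios scaling and 9 when these 2 groups were fitted without the COPD libraries, beside 16.9% and 42.3% of all tested genes called lower in those fits. The 3 comparisons share libraries with one another, so their counts are not independent.

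**Figure D1:**
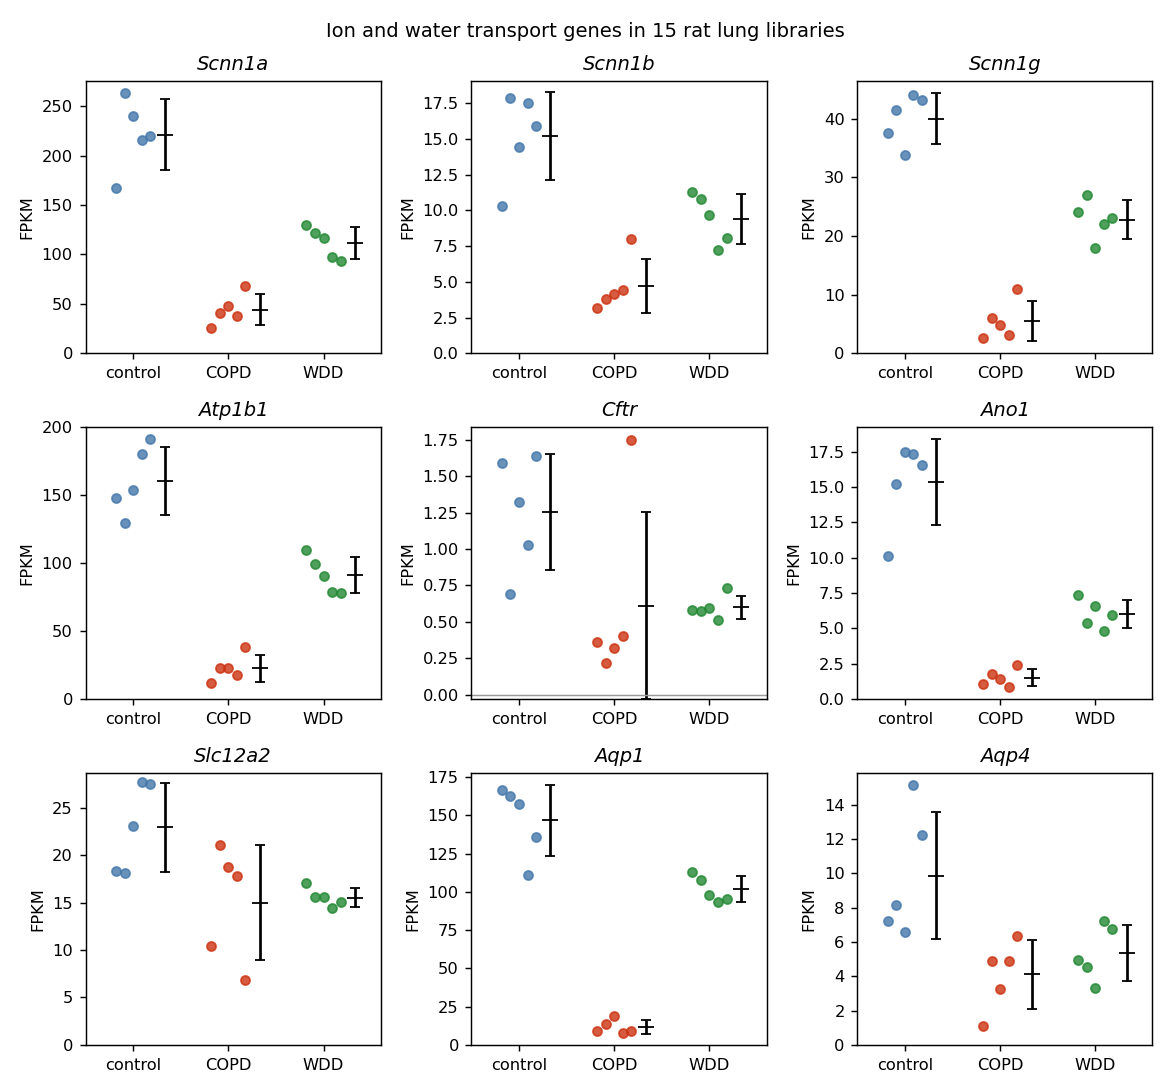
FPKM of the 9 transport genes in each of 15 lung libraries, 1 panel per gene on its own linear axis, with points for libraries and a bar for mean ± SD (n = 5 per group). The COPD points lie below all control points in 7 panels and overlap them for Cftr and Slc12a2, and the lower SD limit of Cftr in COPD falls below 0.

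ENaC fell in the COPD lungs in all 3 of its subunits. Scnn1a, the pore-forming alpha subunit, was at 167, 263, 239.8, 216 and 219 FPKM in control libraries 1 to 5, at 25.6, 41.1, 48.3, 37.4 and 68.4 in COPD libraries 1 to 5, and at 130.2, 121, 117, 97.0 and 93.0 in WDD libraries 1 to 5. The 3 groups were fully separate, with WDD between the others. Group means were 221 ± 35.7, 44.2 ± 15.9 and 112 ± 16.0 FPKM (SD, n = 5 each), so COPD stood at 20.0% and WDD at 50.5% of the control mean. The log2 fold change was -2.35 ± 0.21 (SE) for COPD minus control (limma adjusted p = 6.41e-08) and 1.38 ± 0.21 for WDD minus COPD (limma adjusted p = 4.29e-05). WDD minus control was -0.98 ± 0.21 (limma adjusted p = 0.00172).

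Scnn1g, the gamma subunit, is one of the regulatory subunits that carry the channel to full activity, and it had the largest fall of the 3. It was at 37.6, 41.5, 33.7, 44.1 and 43.1 FPKM in the control libraries, 2.59, 5.95, 4.83, 3.11 and 11.0 in the COPD libraries, and 24.1, 26.9, 17.95, 22.0 and 23.0 in the WDD libraries. No pair of groups overlapped, and COPD library 5 was the highest of its group. The COPD mean was 13.7% of control and the WDD mean 57.0%. Log2 fold changes were -2.79 ± 0.25 for COPD minus control (limma adjusted p = 6.44e-08), 1.999 ± 0.25 for WDD minus COPD (limma adjusted p = 6.81e-06) and -0.79 ± 0.25 for WDD minus control (limma adjusted p = 0.0190). The last did not pass without WDD library 3 (limma adjusted p = 0.0510) or under median-of-ratios scaling.

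Scnn1b, the beta subunit, had the lowest group means of the 3 per unit length and the smallest log2 fold change in each comparison, though Scnn1g was below it in COPD libraries 1 and 4. Control libraries held 10.3, 17.9, 14.4, 17.5 and 15.9 FPKM, COPD libraries 3.17, 3.83, 4.18, 4.397 and 8.01, and WDD libraries 11.2, 10.8, 9.67, 7.21 and 8.06. COPD lay wholly below control, whereas COPD library 5 reached into the WDD range and WDD libraries 1 and 2 into the control range. The log2 fold changes were -1.53 ± 0.20 for COPD minus control (limma adjusted p = 4.18e-06) and 0.90 ± 0.20 for WDD minus COPD (limma adjusted p = 0.00121). The second did not pass under median-of-ratios scaling (0.34, limma adjusted p = 0.218) or quantile normalisation (0.30, limma adjusted p = 0.241). WDD minus control was -0.63 ± 0.20 (limma adjusted p = 0.0214), a call lost without control library 2 or 4 or without WDD library 4 or 5 (limma adjusted p between 0.0541 and 0.0620).

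The subunits did not fall by the same factor. Within each library Scnn1a stood at 14.7 ± 1.75 times Scnn1b in control (range 12.4 to 16.6), 9.48 ± 1.56 in COPD (8.06 to 11.6) and 12.0 ± 0.87 in WDD (11.3 to 13.5). Scnn1g stood at 2.71 ± 0.55 times Scnn1b in control, 1.12 ± 0.36 in COPD and 2.48 ± 0.49 in WDD libraries. All COPD ratios, at most 1.56, were below all control ratios, at least 2.32, and below all WDD ratios, at least 1.86. The share of summed ENaC FPKM that came from Scnn1a was nearly level, at 79.8 ± 2.48% in control, 81.6 ± 2.34% in COPD and 77.5 ± 2.30% in WDD. These ratios do not depend on how libraries are scaled to one another, and are given without a test.

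**Figure D2:**
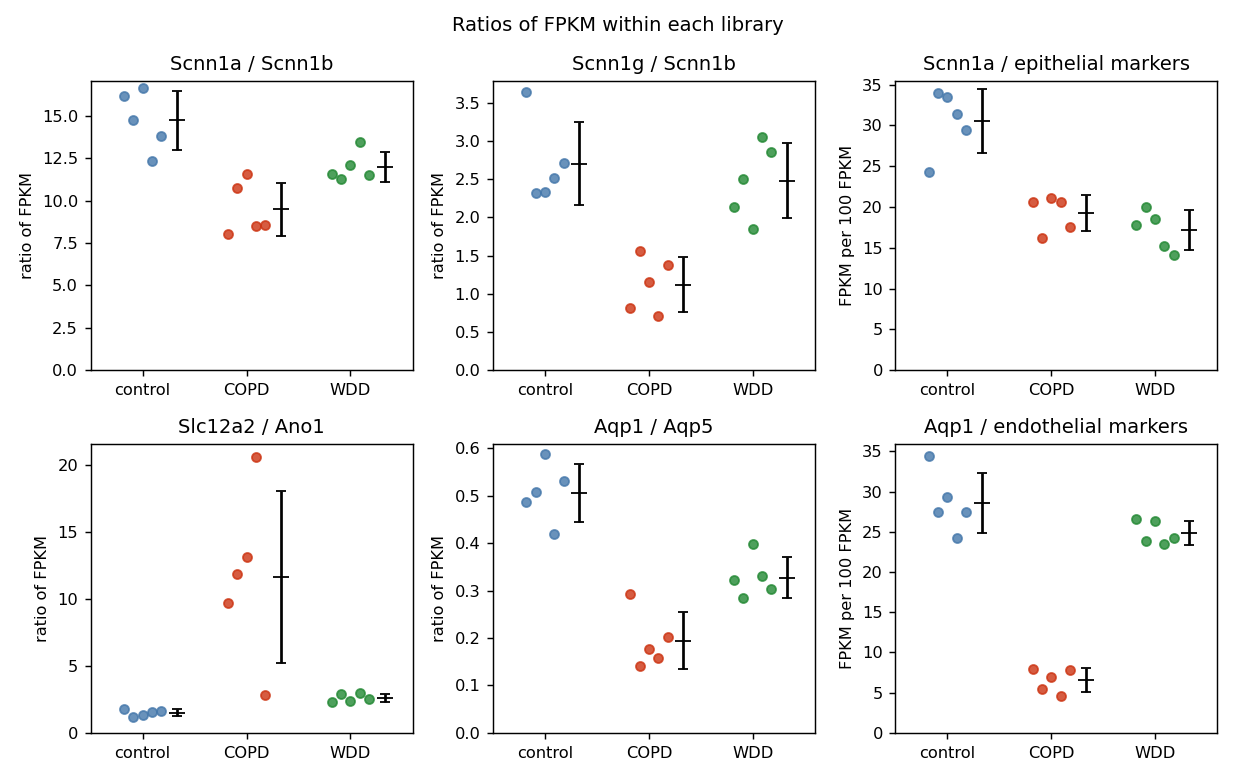
Ratios of FPKM inside each library for 6 quantities, in control, COPD and WDD lungs (points, libraries; bars, mean ± SD, n = 5 per group; linear axes from 0; the panels set against epithelial and endothelial markers are per 100 FPKM of the summed markers). In COPD libraries Scnn1g over Scnn1b is 0.708 to 1.56 against 2.32 to 3.64 in control, and Slc12a2 over Ano1 is 2.83 to 20.6 against 1.19 to 1.81.

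Scnn1g and Scnn1b are adjacent genes with no annotated gene between them on rat chromosome 1 in GRCr8, and their start regions are shown because the pair lies side by side and fell by different amounts. The sequences are from RefSeq (build GRCr8, 250 bases before to 50 after the gene start, 5′ to 3′ on the gene's own strand). They are not from the Rnor_6.0 build used for these libraries. Capitals mark matches to the motifs searched: GGGCGG (Sp1 type) in both, and TGANTCA (AP-1 type) and CTCAAG (core of the lung factor Nkx2-1) in Scnn1g, where matches on the opposite strand appear as the reverse complement.
Scnn1g chr1:185735975-185736274 plus strand: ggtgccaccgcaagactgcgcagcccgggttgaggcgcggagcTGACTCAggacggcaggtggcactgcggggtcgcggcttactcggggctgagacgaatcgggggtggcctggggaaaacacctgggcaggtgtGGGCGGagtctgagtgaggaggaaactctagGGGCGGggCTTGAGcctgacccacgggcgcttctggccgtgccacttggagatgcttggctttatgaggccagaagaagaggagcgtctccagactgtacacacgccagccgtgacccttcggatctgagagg
Scnn1b chr1:185861126-185861425 plus strand: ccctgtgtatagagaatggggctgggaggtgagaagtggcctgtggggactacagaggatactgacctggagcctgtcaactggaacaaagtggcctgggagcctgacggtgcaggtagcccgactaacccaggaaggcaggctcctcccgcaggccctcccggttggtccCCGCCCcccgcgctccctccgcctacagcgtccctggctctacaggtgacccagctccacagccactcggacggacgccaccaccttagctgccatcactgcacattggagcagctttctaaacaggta
The Scnn1g window held GGGCGG at positions -114 and -83 from the start, TGACTCA at -207 and the reverse complement of CTCAAG at -75, and the Scnn1b window held GGGCGG on the opposite strand at -79. GC content was 65% and 62.7%, beside a median of 51.7% over all 33469 promoter windows of the table.

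The sodium pump subunit Atp1b1, which carries the catalytic alpha subunit to the membrane, also fell in COPD lungs. Its FPKM was 148, 129, 154, 180.2 and 191 in control libraries, 11.7, 22.9, 22.9, 17.6 and 38.5 in COPD libraries, and 109, 99.0, 90.8, 79.0 and 78.1 in WDD libraries. All 3 groups were separate, and library 1 was the lowest and library 5 the highest within COPD. The COPD mean was 14.2% and the WDD mean 56.9% of control. The log2 fold change was -2.85 ± 0.23 for COPD minus control (limma adjusted p = 2.39e-08), 2.05 ± 0.23 for WDD minus COPD (limma adjusted p = 2.60e-06) and -0.81 ± 0.23 for WDD minus control (limma adjusted p = 0.0108, not passed under median-of-ratios scaling at 0.0899).

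Among the chloride genes, Ano1 fell most. Ano1 was at 10.1, 15.2, 17.5, 17.3 and 16.6 FPKM in control libraries, 1.07, 1.78, 1.42, 0.863 and 2.44 in COPD libraries and 7.40, 5.40, 6.62, 4.79 and 5.92 in WDD libraries. The groups did not overlap, and control library 1 lay apart below its group. COPD was at 9.88% and WDD at 39.3% of the control mean, the lowest WDD percentage of the 9 genes. Log2 fold changes were -2.71 ± 0.19 for COPD minus control (limma adjusted p = 6.72e-09), 1.504 ± 0.19 for WDD minus COPD (limma adjusted p = 7.21e-06) and -1.21 ± 0.19 for WDD minus control (limma adjusted p = 0.000164).

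Cftr had the lowest level of the 9 genes. Its FPKM was 1.59, 0.690, 1.32, 1.02 and 1.64 in control libraries, 0.366, 0.218, 0.320, 0.406 and 1.75 in COPD libraries and 0.582, 0.575, 0.598, 0.510 and 0.732 in WDD libraries. COPD libraries 1 to 4 lay below all control libraries and COPD library 5 above all of them. The log2 fold change was -0.54 ± 0.20 for COPD minus control (limma adjusted p = 0.0217), which did not pass without control library 1 or 5 or COPD library 2 or 3 (limma adjusted p between 0.0501 and 0.0586) or under median-of-ratios scaling (limma adjusted p = 0.695), and was 0.35 under quantile normalisation. WDD minus COPD was 0.06 ± 0.20 (limma adjusted p = 0.805, 95% interval -0.36 to 0.48) and WDD minus control -0.48 ± 0.20 (limma adjusted p = 0.0688). The pseudocount of 1 exceeds most of these values, so the log2 fold changes understate the ratio of means, which was 48.8% of control for COPD and 47.8% for WDD. Without COPD library 5 the COPD mean was 0.327 ± 0.0807 FPKM (SD, n = 4), or 26.1% of control. Summed ionocyte markers, of a rare cell type rich in Cftr, reached at most 1.71 FPKM in any library, and Bsnd was listed at 0 in all of them.

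Slc12a2 averaged 65.3% of control in COPD, the highest of the 9 percentages there, and 67.6% in WDD, and its direction depends on the scaling. It was at 18.4, 18.1, 23.0, 27.7 and 27.5 FPKM in control libraries, 10.4, 21.1, 18.7, 17.8 and 6.89 in COPD libraries and 17.0, 15.6, 15.6, 14.4 and 15.02 in WDD libraries. COPD libraries 2 and 3 fell inside the control range, and COPD libraries 1 and 5 lay well below it. The fall in COPD against control of -0.66 ± 0.24 (limma adjusted p = 0.0184) was not called without COPD library 1 (limma adjusted p = 0.0511) or without COPD libraries 1 and 5 together (-0.23, limma adjusted p = 0.161), and was 0.22 under median-of-ratios scaling. WDD minus COPD was 0.15 ± 0.24 (limma adjusted p = 0.6003, 95% interval -0.35 to 0.65). WDD minus control was -0.51 ± 0.24 (limma adjusted p = 0.0991), though every WDD library was below every control library. Slc12a2 stood at 1.52 ± 0.256 times Ano1 within control libraries, 11.6 ± 6.41 within COPD libraries (2.83 in library 5, 9.68 to 20.6 in the rest) and 2.62 ± 0.316 within WDD libraries.

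Of the water channels, Aqp1 had the largest change of the 9 genes in both comparisons with COPD. Aqp1 was at 166, 163, 158, 111 and 136 FPKM in control libraries, 9.02, 13.9, 18.9, 7.48 and 8.78 in COPD libraries and 113, 108, 97.9, 93.5 and 95.5 in WDD libraries. COPD was far below both other groups, while WDD library 1 exceeded control library 4. The mean was 147 ± 23.1 FPKM in control, 11.6 ± 4.76 in COPD and 102 ± 8.51 in WDD, or 7.92% and 69.2% of control. COPD minus control was -3.61 ± 0.20 (limma adjusted p = 1.499e-09), and 0.334% of tested genes had a lower value. WDD minus COPD was 3.09 ± 0.20 (limma adjusted p = 1.46e-08), and WDD minus control was -0.51 ± 0.20 (limma adjusted p = 0.0547).

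Endothelial markers moved in the same direction as Aqp1, and by less. The sum of the 7 endothelial markers in the table was 458 to 591 FPKM in control, 112 to 270 in COPD and 371 to 452 in WDD libraries, with Cldn5 listed at 0 in every library. Of 6 that were tested, 5 fell in COPD and 5 rose in WDD against COPD, with medians of -1.98 and 1.57, beside 66.4% and 57.1% of all tested genes. Under median-of-ratios scaling 3 of the 6 fell and 3 rose, respectively, beside 32.3% and 23.3% of all. Aqp1 per 100 FPKM of these markers was 28.6 ± 3.75 in control, 6.57 ± 1.51 in COPD and 24.9 ± 1.49 in WDD libraries. The COPD values, at most 7.95, lay below all others, of which the lowest was 23.5. The part that endothelial content has in the Aqp1 result was not tested beyond this.

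Aqp4, the other water channel, was lower in level and more variable. It was at 7.20, 8.15, 6.57, 15.2 and 12.3 FPKM in control libraries, 1.12, 4.90, 3.26, 4.89 and 6.37 in COPD libraries and 4.95, 4.52, 3.31, 7.24 and 6.78 in WDD libraries. All COPD values were below all control values, by a narrow margin between COPD library 5 and control library 3. COPD minus control was -1.14 ± 0.31 (limma adjusted p = 0.00293), a call lost under median-of-ratios scaling (-0.37, limma adjusted p = 0.308) and quantile normalisation (-0.19, limma adjusted p = 0.601). WDD minus COPD was 0.39 ± 0.31 (limma adjusted p = 0.268, 95% interval -0.25 to 1.04), and WDD minus control was -0.75 ± 0.31 (limma adjusted p = 0.0650).

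The start regions of Aqp1 and Ano1 are shown because these genes had the lowest COPD percentages of control. They are RefSeq GRCr8 sequences cut as above, with matches in capitals (TATAAA, the TATA box, and GGGCGG).
Aqp1 chr4:85812534-85812833 plus strand: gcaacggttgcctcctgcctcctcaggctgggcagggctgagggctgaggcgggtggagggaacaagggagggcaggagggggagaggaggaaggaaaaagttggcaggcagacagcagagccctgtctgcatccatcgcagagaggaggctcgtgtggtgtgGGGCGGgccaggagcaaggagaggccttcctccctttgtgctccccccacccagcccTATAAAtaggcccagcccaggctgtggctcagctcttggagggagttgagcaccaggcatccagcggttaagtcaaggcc
Ano1 chr1:209329289-209329588 minus strand: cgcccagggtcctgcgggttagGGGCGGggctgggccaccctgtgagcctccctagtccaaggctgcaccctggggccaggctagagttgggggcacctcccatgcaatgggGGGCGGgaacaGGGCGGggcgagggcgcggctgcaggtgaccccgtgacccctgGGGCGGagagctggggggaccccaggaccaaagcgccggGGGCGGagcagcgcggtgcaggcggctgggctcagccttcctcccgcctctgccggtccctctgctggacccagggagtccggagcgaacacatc
Aqp1 was the only one of 8 promoter windows, from 7 of the 9 genes, with TATAAA, at position -30, and 14.2% of all 33469 windows held it on either strand. GGGCGG stood in 7 of the 8 windows and 33.1% of all, with 5 matches in Ano1, whose window had a GC content of 73.7%. TGTTCT, bound by the glucocorticoid receptor, stood in 0 of 8 and 20.7% of all, TGANTCA in 1 and 7.33%, and CTCAAG in 2 and 15.8%. Matches on both strands counted and no motif overlapped another in these windows. These are letter matches in a short window and not measured sites.

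**Figure D3:**
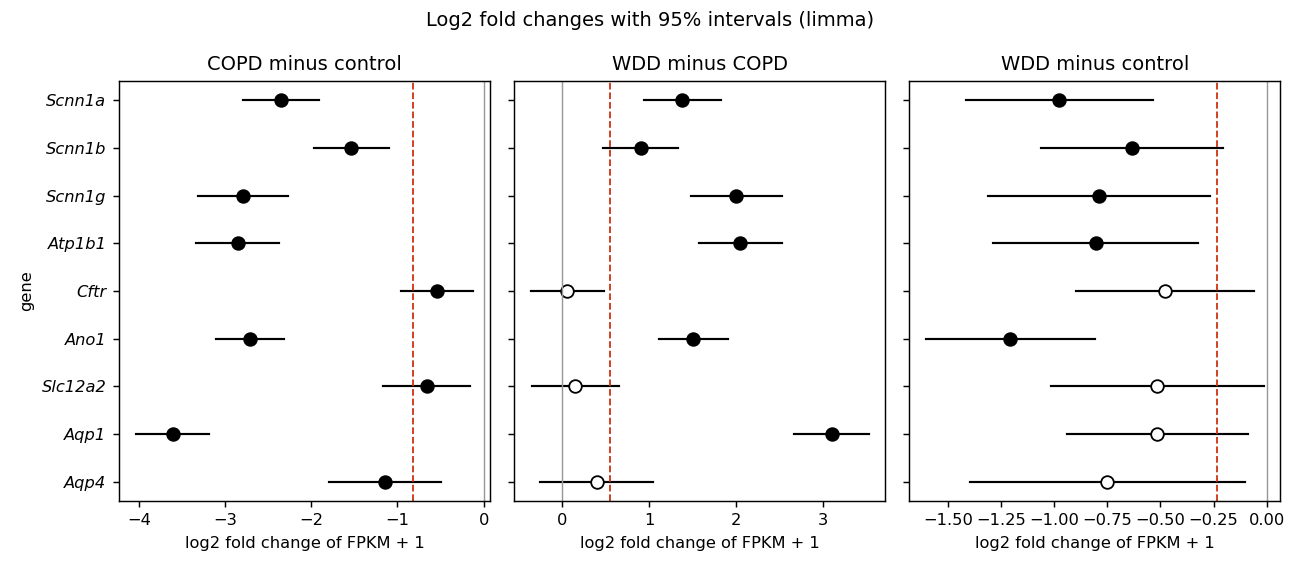
Log2 fold changes of FPKM + 1 for the 9 genes in 3 comparisons (points, limma estimates; lines, 95% intervals; filled points pass an adjusted p of 0.05; dashed line, the median of all tested genes; n = 5 per group). Aqp1 lies farthest from 0 in the first 2 panels, at -3.61 and 3.09, and Ano1 is lowest in the third, at -1.21.

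The size of the changes depended on how libraries were scaled. The median of all tested genes in COPD minus control was -0.81 as deposited, -1.27 after scaling to the sum of all genes, -0.65 after scaling to the sum without mitochondrial genes, -0.05 with median-of-ratios scaling and -0.02 after quantile normalisation. Calls over all genes shifted from 8749 lower and 1084 higher as deposited to 4256 lower and 3977 higher under median-of-ratios scaling. In WDD minus COPD they shifted from 7526 higher and 873 lower to 3073 higher and 2819 lower, and in WDD minus control from 4079 lower and 836 higher to 2224 lower and 2100 higher. Scnn1a, Scnn1b, Scnn1g, Atp1b1, Ano1 and Aqp1 stayed called lower in COPD than in control under all 4 rescalings, and all of these but Scnn1b stayed called higher in WDD than in COPD. Cftr, Slc12a2 and Aqp4 each lost their call in COPD against control under median-of-ratios scaling and after quantile normalisation.

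**Figure D4:**
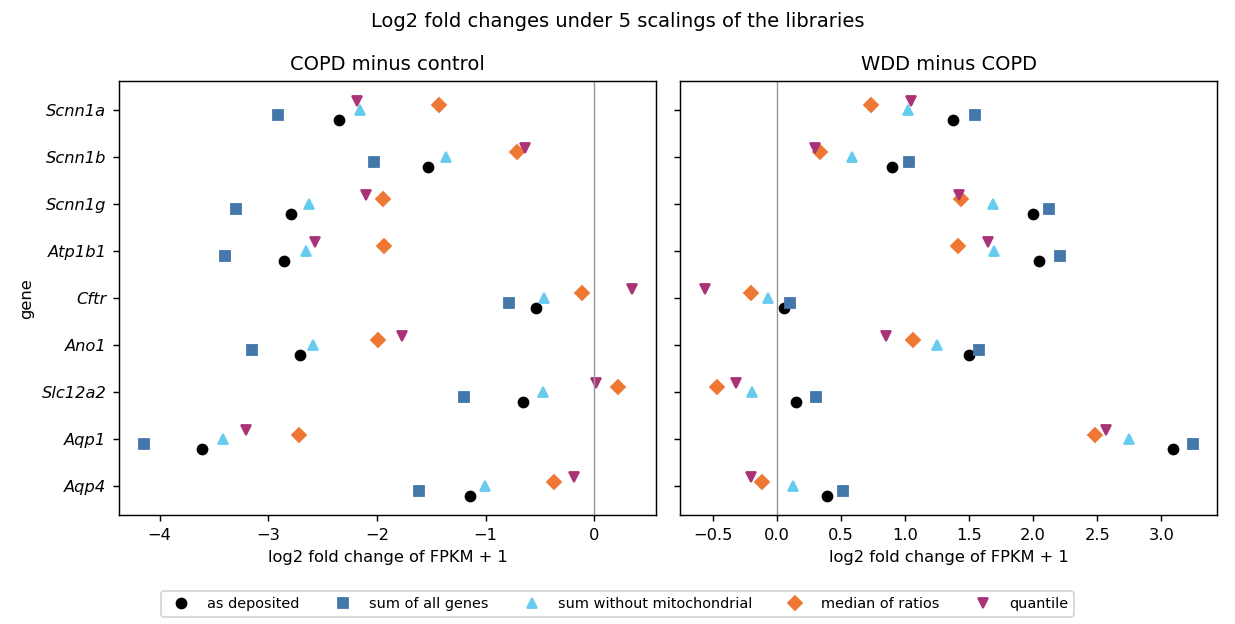
Log2 fold changes of the 9 genes in COPD minus control (left) and WDD minus COPD (right) as deposited and under 4 rescalings of the libraries (symbols; linear axes; vertical line at 0). Aqp1, Atp1b1, Scnn1g, Scnn1a, Ano1 and Scnn1b stay on 1 side of 0 in both panels. Slc12a2 and Cftr cross it in both panels, and Aqp4 crosses it in the right panel only.

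Markers of lung epithelium were present in every library: the 9 alveolar type 1 markers summed to 3404 to 4741 FPKM in control, 624 to 1795 in COPD and 2830 to 4003 in WDD libraries. General epithelial markers (8 genes) summed to 686 to 775, 124 to 389 and 604 to 730 FPKM. All 9 type 1 markers were called lower in COPD than in control, with a median of -2.58. So were 7 of 8 general epithelial markers, with a median of -1.58, beside 66.4% of all tested genes. Under median-of-ratios scaling 8 type 1 and 5 general epithelial markers were called lower, beside 32.3% of all. Alveolar type 2 markers (9 genes) summed to 16610 to 25344 FPKM in control, 3102 to 14398 in COPD and 19694 to 23073 in WDD libraries. Of these, 7 were called lower in COPD than in control, with a median of -1.97. Under median-of-ratios scaling 6 type 2 markers were called lower and 2 higher, beside 32.3% and 30.2% of all. Scnn1a per 100 FPKM of general epithelial markers was 30.5 ± 3.91 in control, 19.2 ± 2.21 in COPD and 17.2 ± 2.46 in WDD libraries. Control values, at least 24.3, were above all COPD and WDD values, at most 21.1 and 20.1, and COPD and WDD overlapped on this scale. Airway lists differed from these in the values as deposited. Of 5 tested club and secretory markers 2 were lower in COPD and 1 higher, with a median of -0.60. Of 5 ciliated markers 3 were lower, with a median of -0.75, against -0.81 for all tested genes. After quantile normalisation the club and secretory median was -2.08, below the -1.41 of general epithelial markers. The ciliated median was then 0.15. Summed club and secretory markers (6 genes) were 10947 to 17130 FPKM in control, 1941 to 14481 in COPD and 17075 to 38633 in WDD libraries, and summed ciliated markers (6 genes) 445 to 525, 77.5 to 302 and 501 to 649 FPKM. The part of epithelial content in the ENaC and Cftr results was not tested beyond this.

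Of 18 listed genes that regulate or process ENaC, 15 were lower in COPD than in control, 0 higher and 3 not passed, beside 66.4% of all tested genes called lower. Their median was -1.19, against -0.81 for all. In WDD against COPD 12 were higher, beside 57.1% of all. Under median-of-ratios scaling the counts became 8 lower and 2 higher in COPD against control (32.3% and 30.2% of all), and 7 higher and 4 lower in WDD against COPD (23.3% and 21.4% of all). Prss8, a membrane protease that cleaves and activates ENaC, averaged 34.5 FPKM in control, 4.48 in COPD and 15.3 in WDD (COPD minus control -2.72, limma adjusted p = 1.01e-08). Tsc22d3, a glucocorticoid-induced gene also called Gilz, averaged 302, 78.2 and 313 FPKM, and its WDD minus control value was 0.04 (limma adjusted p = 0.875).

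Regulators that act on ENaC at the membrane were measured too. Nedd4l, the ubiquitin ligase that removes ENaC from the membrane, averaged 35.8, 13.4 and 21.8 FPKM and fell by 1.38 on the log2 scale in COPD against control (limma adjusted p = 1.04e-06). Sgk1, the kinase that blocks Nedd4l, averaged 47.3, 57.8 and 40.3 FPKM, with no comparison passed (COPD minus control -0.13, limma adjusted p = 0.768). Without COPD libraries 1 and 5 together, COPD minus control was -0.33 and called lower (limma adjusted p = 0.0372). COPD library 5 alone held 160.4 FPKM of Sgk1, against 16.8 to 41.7 in the rest of its group.

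Of 9 sodium pump genes other than Atp1b1, 6 fell in COPD against control, a share near the 66.4% of all tested genes called lower. A rise was called for 2 of the 9, beside 8.23% of all tested genes called higher. Under median-of-ratios scaling 4 were lower and 3 higher, beside 32.3% and 30.2% of all. Atp1b2, another beta subunit, changed by -1.32 (limma adjusted p = 1.63e-06, not passed after quantile normalisation at 0.116) and the pump regulator Fxyd3 by -1.76 (limma adjusted p = 6.61e-06). Fxyd5, another pump regulator, rose by 1.09 (limma adjusted p = 0.0239) and is named after its values were seen. That call was lost after scaling to the sum of all genes (0.53, limma adjusted p = 0.211), and the value was 1.78 without COPD libraries 1 and 5. Fxyd5 averaged 68.2 ± 10.9 FPKM in control and 180.0 ± 95.1 in COPD, where library 5, at 31.1, lay below every control library.

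Of 18 further chloride and bicarbonate genes, 16 fell in COPD, 1 rose and 1 did not pass. Over all tested genes 66.4% were called lower and 8.23% higher. Under median-of-ratios scaling 12 of the 18 were lower and 2 higher, beside 32.3% and 30.2% of all. Clcn3, an endosomal chloride-proton exchanger, fell by 2.43 (limma adjusted p = 4.45e-08), Lrrc8a, the essential subunit of the volume-regulated anion channel, changed by -2.28 (limma adjusted p = 6.56e-08) and the scramblase Ano6 by -2.10 (limma adjusted p = 7.11e-08). Slc26a9, an epithelial chloride channel, averaged 16.4 FPKM in control, 5.30 in COPD and 4.57 in WDD, with -0.02 for WDD minus COPD (limma adjusted p = 0.949). The riser, named after its values were seen, was Slc26a4, the chloride-bicarbonate exchanger pendrin. Slc26a4 averaged 1.36 ± 0.651 FPKM in control, 10.8 ± 3.08 in COPD and 0.954 ± 0.810 in WDD, and COPD overlapped neither group. Its log2 fold change was 2.33 for COPD minus control (limma adjusted p = 7.30e-07) and -2.65 for WDD minus COPD (limma adjusted p = 9.01e-07).

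Of 7 tested potassium channel genes 5 fell in COPD and 5 rose in WDD against COPD, beside 66.4% and 57.1% of all tested genes. Under median-of-ratios scaling 5 were lower and 2 higher in COPD against control, beside 32.3% and 30.2% of all. Kcnj15, an inward rectifier, had the largest fall, at -4.12 (limma adjusted p = 2.32e-09), with means of 47.3 FPKM in control, 1.75 in COPD and 10.5 in WDD. Kcnq1 and its partner Kcne2 also fell, at -1.68 and -1.72 (limma adjusted p = 4.24e-07 and 2.21e-05). Among 3 tested other aquaporins, Aqp5 fell in COPD by 2.29 (limma adjusted p = 1.53e-06), with means of 290.1, 65.3 and 315 FPKM, and its WDD minus control value was 0.11 (limma adjusted p = 0.789). Within a library Aqp1 stood at 0.507 ± 0.0613 times Aqp5 in control, 0.194 ± 0.0598 in COPD and 0.328 ± 0.0430 in WDD. Aqp9, a glycerol and water channel of leukocytes, was the riser, at 0.429, 15.7 and 0.702 FPKM (COPD minus control 3.37, limma adjusted p = 1.28e-07), beside the neutrophil markers above, and Aqp3 passed no comparison.

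**Figure D5:**
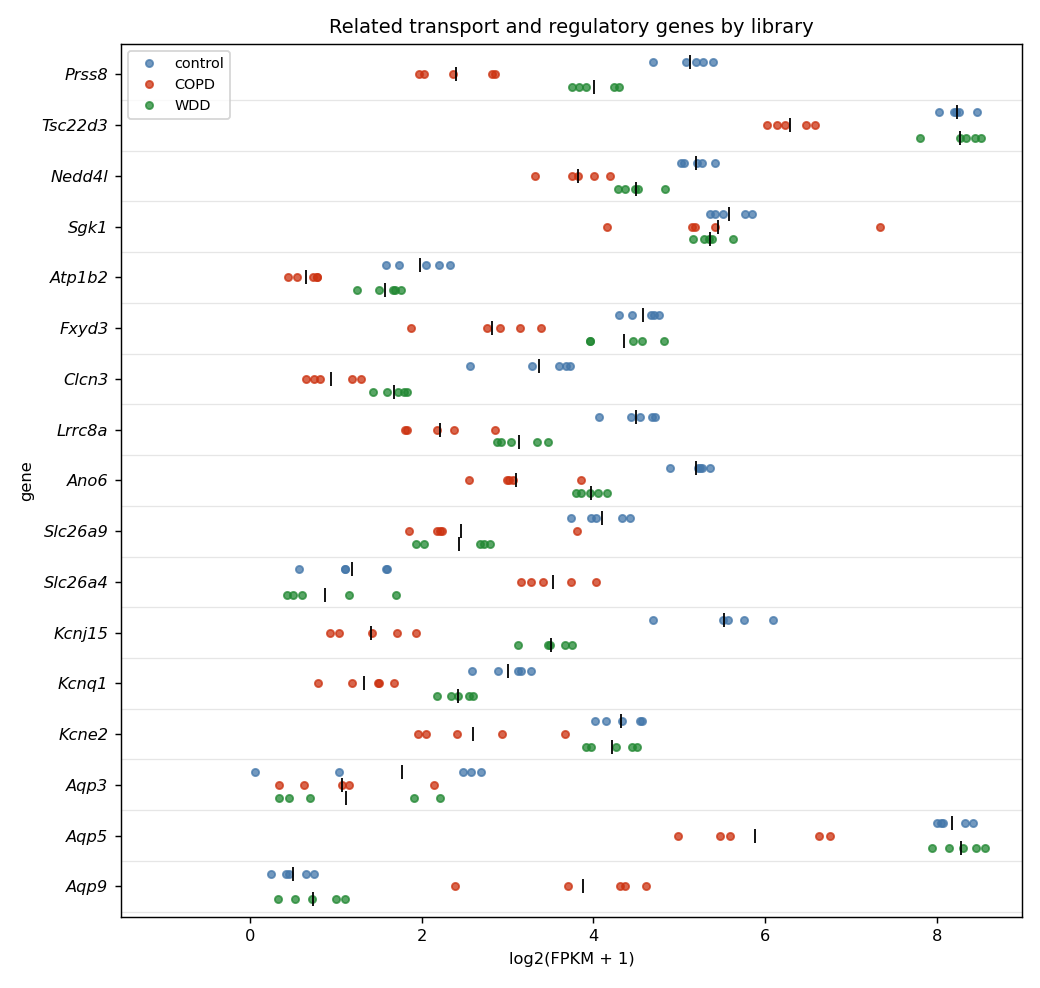
Log2(FPKM + 1) of 17 related genes in each library (points; control, COPD and WDD in separate rows per gene; vertical ticks, group means; n = 5 per group). Slc26a4 and Aqp9 are the 2 genes shown whose COPD points lie above all others, and Sgk1 has 1 COPD library at 160.4 FPKM beyond the rest.

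Across the 15 libraries some pairs of members moved together and others did not. Pearson r of the log2 values, given as a description over libraries that also share mitochondrial share and group, was 0.98 for Scnn1a with Scnn1b (0.88 after group means were subtracted) and 0.99 for Scnn1g with Atp1b1 (0.86 after subtraction). For Aqp1 with Scnn1b it was 0.84, and -0.20 after subtraction, and for Aqp1 with Ano1 0.91 and 0.05. For Cftr with Slc12a2 it was 0.03, and -0.61 after subtraction. COPD library 5 had the highest Cftr and the lowest Slc12a2 value of its group, and r without it was not computed. The tested genes most like Scnn1a were Fgfr1, Nomo1 and Epb41l2 (r = 0.99 each), and those most like Atp1b1 were Ddx5 (r = 0.995), Arl8b and Pkd2. Ano1 was closest to Mmp15, Slc34a2 (the phosphate transporter of alveolar type 2 cells) and Sft2d2, and Aqp1 to Fam3a, Thoc3 and Vamp2, where r of 0.99 became 0.71, 0.67 and 0.70 after subtraction.

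For the other members, Scnn1b was nearest to Zc3h18, Mfsd12 and Carmil1, Scnn1g to Ddx5, App and F11r, Cftr to Tiparp, Slc1a3 and Arih1, Slc12a2 to Rfesd, Dnajc22 and Slc43a2, and Aqp4 to Ulk4, Fam20b and Lrrc18. COPD library 5 was the highest of its group in 7 of the 9 genes and COPD library 1 the lowest in 5. In the WDD group, library 1 was highest in 6 and library 4 lowest in 5.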

How the data were processed

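Lung RNA-seq was compared between 3 groups of 5 libraries. The authors deposited one table of FPKM per gene and library. Per the submitters' processing notes, cutadapt, HISAT2 and StringTie were used with the Rnor_6.0 build. The sources used here give no versions, gene annotation, strand setting or read totals, so FPKM of overlapping or antisense genes cannot be separated and counting error cannot be given. FPKM, as the authors deposited it, was taken to log2(FPKM + 1). Genes reaching 1 FPKM in 5 or more libraries were fitted with limma 3.58.1 (R 4.3.3, empirical Bayes with trend) in 1 model of all 15 libraries, with Benjamini-Hochberg adjustment. Fold changes are on this scale and understate changes of low genes. Alternatives were other pseudocounts (0.1, 0.5), filters, scalings, variance models, a replicate block, fits of 2 groups and leaving out libraries. Library measures were compared by exact permutation. The steps were tested on simulated data. Python 3.11.15 was used for ratios, motifs and plots.

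The members and lists were chosen with earlier results of these data known. Named genes were the 9 members, the 3 of each pathway list with the lowest p in COPD minus control, Sgk1, Nedd4l, Aqp5 and Slc26a9, and the 3 tested genes most correlated with each member. Some genes that this rule names are not reported here. Others named are said to be chosen after their values were seen, Aqp9 and Aqp3 being part of a list of 3. Averaging WDD libraries 4 and 5 was an alternative added after seeing the data.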

Additional observations from a re-analysis of the deposited data

Results flagged for a closer look

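Outliers were sought in 27 groups of 5 values (9 genes in 3 groups) on the log2(FPKM + 1) scale. The extreme library's gap to its nearest neighbour was divided by the range of the group. That quotient was compared with a critical value of 0.71, which chance passes in about 1 of 20 groups. The critical value was passed in 2, at 0.824 for Cftr and 0.740 for Ano1 on that log2 scale. FPKM values are given below. Cftr in COPD library 5 was at 1.75 FPKM, against 0.218 to 0.406 in the other 4 COPD libraries. Ano1 in control library 1 was at 10.1 FPKM, against 15.2 to 17.5 in the other 4 control libraries.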

How the results depend on the processing

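The 9 genes were called lower in COPD than in control in 6 to 9 cases over 23 alternatives (8 to 9 when 1 library was left out), and higher in WDD than in COPD in 5 to 6 cases over 24 alternatives (6 when 1 library was left out). The count of genes lower in WDD than in control was less stable. It was 5 as reported and 4 to 5 when 1 library was left out. It was 2 under median-of-ratios scaling, and 9 after scaling to the sum without mitochondrial genes or to the sum of all genes, with library weights, without COPD replicates 1 and 5 together, and when only the 2 groups compared were fitted. The last 3 change how the spread is estimated, and 9 of 9 genes had an unadjusted p under 0.05 in the reported fit. With the replicate number as a block the count was 8, but the numbers do not pair the libraries: of 15 same-numbered pairs 1 had deviations correlated above 0.1 (range -0.20 to 0.14). The block moved no other count of calls by over 1.5 times. Changes of sign were limited to Cftr, Slc12a2 and Aqp4. In COPD minus control, Slc12a2 was 0.22 under median-of-ratios scaling and 0.016 after quantile normalisation, and Cftr was 0.35 after the latter. In WDD minus COPD, Cftr, Slc12a2 and Aqp4 were -0.20, -0.46 and -0.12 with median-of-ratios scaling, and -0.56, -0.32 and -0.20 after quantile normalisation. Cftr and Slc12a2 were -0.069 and -0.19 after scaling to the sum without mitochondrial genes. When 1 library was left out, Cftr ranged from -0.024 (without COPD replicate 2) to 0.27 (without COPD replicate 5) and Slc12a2 from -0.083 (without COPD replicate 5) to 0.29 (without COPD replicate 2). Slc12a2 was -0.19 with library weights and -0.29 without COPD replicates 1 and 5. None of these 3 genes was called in that comparison. The causes were not tested. Depth is known only in relative terms, which limits what can be said of Cftr.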
